A study of Mus musculus with 37 samples.

Results

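The genes of endoplasmic reticulum (ER) protein folding and of the unfolded protein response were followed in mouse brain RNA. They are 34 genes out of 56980 rows of the count table, given by symbol and found by matching each row's Ensembl identifier to a mouse gene symbol. All 34 were found. They comprise 9 ER chaperones and co-chaperones, 2 lectin chaperones, 6 protein disulfide isomerase family members, 6 stress sensors and transcription factors, 3 targets of ATF4 and CHOP, 6 genes of ER-associated degradation and 2 genes of the translocation channel region.

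Polyadenylated RNA was sequenced from brain of male wild-type C57BL/6J mice, and the series title places the tissue in the medial prefrontal cortex. Adolescent mice started treatment at postnatal day 25 and adult mice at postnatal day 55. Within each age, mice stayed on water or received oral antibiotics, and were injected subcutaneously with saline or with morphine at 15 mg/kg for 5 days. The antibiotics given are not named in the sources used here, and no group carried a transgene or a deletion. Of 37 libraries, 35 with more than 1000000 counts were used. The adolescent groups held 5 water saline, 5 water morphine, 3 antibiotics saline and 5 antibiotics morphine libraries. The adult groups held 3 water saline, 5 water morphine, 5 antibiotics saline and 4 antibiotics morphine libraries.

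The ER lumen holds chaperones that bind unfolded chains, lectins that hold glycoproteins until they fold, and oxidoreductases that form and reshuffle disulfide bonds. When unfolded protein accumulates, the sensors IRE1 (gene Ern1), PERK (Eif2ak3) and ATF6 (Atf6) start the unfolded protein response. IRE1 splices Xbp1 mRNA, ATF6 is cut to release a transcription factor, and PERK slows translation while favouring synthesis of ATF4, which acts on amino acid genes and on Ddit3, the gene of CHOP. In neurons these genes serve a large output of receptors, channels and secreted peptides.

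The ATF6 and XBP1 branch acts on chaperone genes through a composite promoter element, the ER stress response element, whose CCAAT end is bound by NF-Y and whose CCACG end is bound by ATF6. Its letters, CCAAT and then CCACG after 9 other bases, were searched on both strands of the 250 bases before and 50 bases after each RefSeq gene start (GRCm38.p6). Promoters were given for 29 of the 34 genes, and 8 of them held the element, against 0.137% of all 27025 promoter symbols. The list was chosen to hold genes of this response, so that excess is not a result of these data. With antibiotics on average, 15 of the 33 members tested and 5.05% of all genes fell. Of 12 tested genes outside the list with the same element, 2 fell and 1 rose. The elements are shown because 6 of the 8 members that hold them were lower with antibiotics. Whether the element has a part in those values was not tested. Each reads 5′ to 3′ in the orientation of the motif, with the CCAAT and CCACG ends in capitals.
Hspa5, chr2:34772025-34772043, on the strand of the gene: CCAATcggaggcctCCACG
Pdia6, chr12:17266491-17266509, on the strand of the gene: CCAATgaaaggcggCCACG
Calr, chr8:84847075-84847093, on the opposite strand: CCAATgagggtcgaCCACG
Canx, chr11:50325800-50325818, on the strand of the gene: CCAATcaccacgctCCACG
Hsp90b1, chr10:86705638-86705656, on the strand of the gene: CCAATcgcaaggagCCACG
Hsp90b1, chr10:86705533-86705551, on the opposite strand: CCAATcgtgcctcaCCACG
Creld2, chr15:88819520-88819538, on the opposite strand: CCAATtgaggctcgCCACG
Dnajc3, chr14:118937827-118937845, on the strand of the gene: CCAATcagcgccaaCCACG
Syvn1, chr19:6046532-6046550, on the strand of the gene: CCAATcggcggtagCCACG

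In Hspa5 the element lies 65 bases upstream of the gene start, and in Pdia6 it lies 98 bases upstream. The promoter of Hspa5 (chr2:34771840-34772089, plus strand) is given for its place close to the start, with the element in capitals.
Hspa5 promoter: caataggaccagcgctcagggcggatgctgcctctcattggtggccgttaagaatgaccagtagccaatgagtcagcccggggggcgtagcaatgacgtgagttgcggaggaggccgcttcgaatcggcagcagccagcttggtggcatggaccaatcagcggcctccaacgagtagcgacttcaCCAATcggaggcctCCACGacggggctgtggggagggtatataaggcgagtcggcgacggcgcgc

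A second arrangement, ATTGG and then CCACG after 1 other base, was present in the promoters of Dnajb11 and Herpud1 and in 0.0444% of all promoter symbols. The letters TGACGTGG, an XBP1 and ATF6 site, were in none of the members' windows and in 0.714% of all. The letters TGATGCAA, a site read by ATF4 with C/EBP proteins, were in Chac1 and Herpud1 and in 1.03% of all. Herpud1 thus held both an ATF6-type and an ATF4-type element, and its promoter (chr8:94386179-94386428, plus strand) is shown because it was the member called both for age on water with saline and for morphine in adolescents on water. Both calls use the same adolescent water saline libraries, so they are not separate evidence, and the morphine call was lost in several settings. The capitals mark the ATF4-type letters, read on the opposite strand, and then the second arrangement.
Herpud1 promoter: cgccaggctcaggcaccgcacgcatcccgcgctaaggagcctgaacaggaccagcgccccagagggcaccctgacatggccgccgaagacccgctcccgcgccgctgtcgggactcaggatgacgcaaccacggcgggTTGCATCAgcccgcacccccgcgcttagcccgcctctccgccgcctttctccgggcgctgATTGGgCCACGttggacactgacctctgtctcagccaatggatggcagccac

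The 35 libraries held 10630727 to 31560468 counts, with a median of 15910823. All 6 excitatory neuron markers were detected in water and antibiotics libraries, with summed levels of 4850 to 8760 counts per 1000000 counts of the library (CPM). The library labelled adolescent water saline replicate 1 stood apart. Its 6 oligodendrocyte markers summed to 18600 CPM against 1150 to 2750 in the other 4 of its group, its striatal neuron markers to 1080 against 108 to 143, and its excitatory neuron markers to 4850 against 7920 to 8760. It also held the highest Hspa5 of its group, 238 CPM against 171 to 188, so results that rest on it are given without it as well. Islet hormone reads of more than 20 counts occurred in 7 libraries, all adolescent, 3 on water and 4 on antibiotics.

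Per kilobase of annotated exon, the most abundant member was Calr (calreticulin, a calcium-binding lectin chaperone), at a mean level of 88.7 CPM per kb. Canx (calnexin, its membrane-bound relative) followed at 63.5 CPM per kb and Pdia3, the oxidoreductase that works with both, at 44.5 CPM per kb. Hsp90b1 (GRP94) and Hspa5 (BiP, the main ER HSP70 and the regulator of the sensors) were at levels of 40.1 and 39.9 CPM per kb, and the transcription factor Atf4 at 41.1 CPM per kb. Among the genes tested, Ern1 was lowest, at 1.42 CPM per kb. Trib3, a pseudokinase induced by CHOP, had 0 to 25 counts per library and did not pass the filter on low counts, so 33 members were tested.

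Many of the listed ER chaperone and disulfide isomerase transcripts were lower in mice given oral antibiotics. Averaged with equal weight over the 4 combinations of age and injection, 15 of the 33 members tested fell and 0 rose, with 18 not passing the threshold (edgeR quasi-likelihood test, Benjamini-Hochberg adjusted p under 0.05 over 19332 genes). Among all genes tested, 5.05% fell and 5.16% rose, and among genes with a mean of at least 5 CPM 6.84% fell. The members were chosen with earlier results of these data known, so their share against all genes is a description and not a test. The median member difference was -0.09 on the log2 scale against -0.00 for all genes. By role, 7 of 9 chaperones and co-chaperones, both lectin chaperones and 4 of 6 disulfide isomerase family members fell. Of the 6 sensors and transcription factors 1 fell (Xbp1), and of the 6 degradation genes 1 fell (Sel1l). None of the 2 tested ATF4 and CHOP targets or of the 2 translocation genes passed.

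Hspa5 illustrates the size of the change. In adolescents given saline, its level was 238, 188, 171, 179 and 171 CPM on water and 155, 162 and 165 CPM on antibiotics. In adolescents given morphine it was 183, 179, 194, 192 and 192 CPM on water and 148, 135, 141, 159 and 138 CPM on antibiotics. Every antibiotics library lay below every water library in both adolescent comparisons. In adults given saline the levels were 182, 196 and 170 CPM on water and 149, 142, 141, 140 and 162 CPM on antibiotics, again without overlap. In adults given morphine they were 183, 185, 176, 175 and 162 CPM on water and 163, 147, 162 and 183 CPM on antibiotics, and these groups overlapped. Averaged, Hspa5 fell by 16.5% (log2 difference -0.26, SE 0.04, adjusted p = 9.62e-06 by edgeR's quasi-likelihood test).

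Other chaperones fell as well. Hyou1 (GRP170, the exchange factor of BiP) ranged from 84.8 to 98.2 CPM, median 90.7, in the 18 water libraries and from 72.7 to 88.3 CPM, median 80.8, in the 17 antibiotics libraries. It fell by 11.7% (log2 -0.18, SE 0.02, adjusted p = 9.91e-07). Sdf2l1, a partner of BiP and its J proteins that limits aggregation, ranged from 6.31 to 10.4 CPM, median 8 CPM, on water and from 5.28 to 8.24 CPM, median 6.76, on antibiotics. Its log2 difference of -0.32 (SE 0.06, adjusted p = 0.00116) was the most negative of the members tested. Hsp90b1 (-0.13, with 10.3% of its exon length under an opposite-strand gene), the J-domain co-chaperone Dnajb11 (-0.16), and the secreted ER-stress factors Manf (-0.14) and Creld2 (-0.20) also fell. Of the other 2 co-chaperones in the list, Dnajc3 was at -0.07 and Dnajb9 at 0.06, neither passing.

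Both lectin chaperones and most disulfide isomerase genes fell. Calr ranged from 245 to 305 CPM, median 274, on water and from 190 to 280 CPM, median 232, on antibiotics, and fell by 14.0% (log2 -0.22, SE 0.03, adjusted p = 1.09e-06). Canx ranged from 292 to 340 CPM on water and from 246 to 308 CPM on antibiotics, and fell by 7.75%. Pdia6, an oxidoreductase that also dampens IRE1 and PERK signalling, had the smallest p of all members. It ranged from 66.5 to 94.2 CPM, median 77.6, on water and from 56.3 to 73.5 CPM, median 65.1, on antibiotics, and fell by 17% (log2 -0.27, SE 0.03, adjusted p = 1.65e-07). Pdia4 (-0.28), Pdia3 (-0.15) and Erp44 (-0.11, adjusted p = 0.0485), which retrieves clients from the Golgi, fell as well. P4hb, the founding protein disulfide isomerase, was at -0.02 and Erp29 at -0.04, neither passing, and 24.4% of the annotated exon length of Erp29 overlaps the opposite-strand gene Naa25, whose reads cannot be told apart here.

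**Figure D1:**
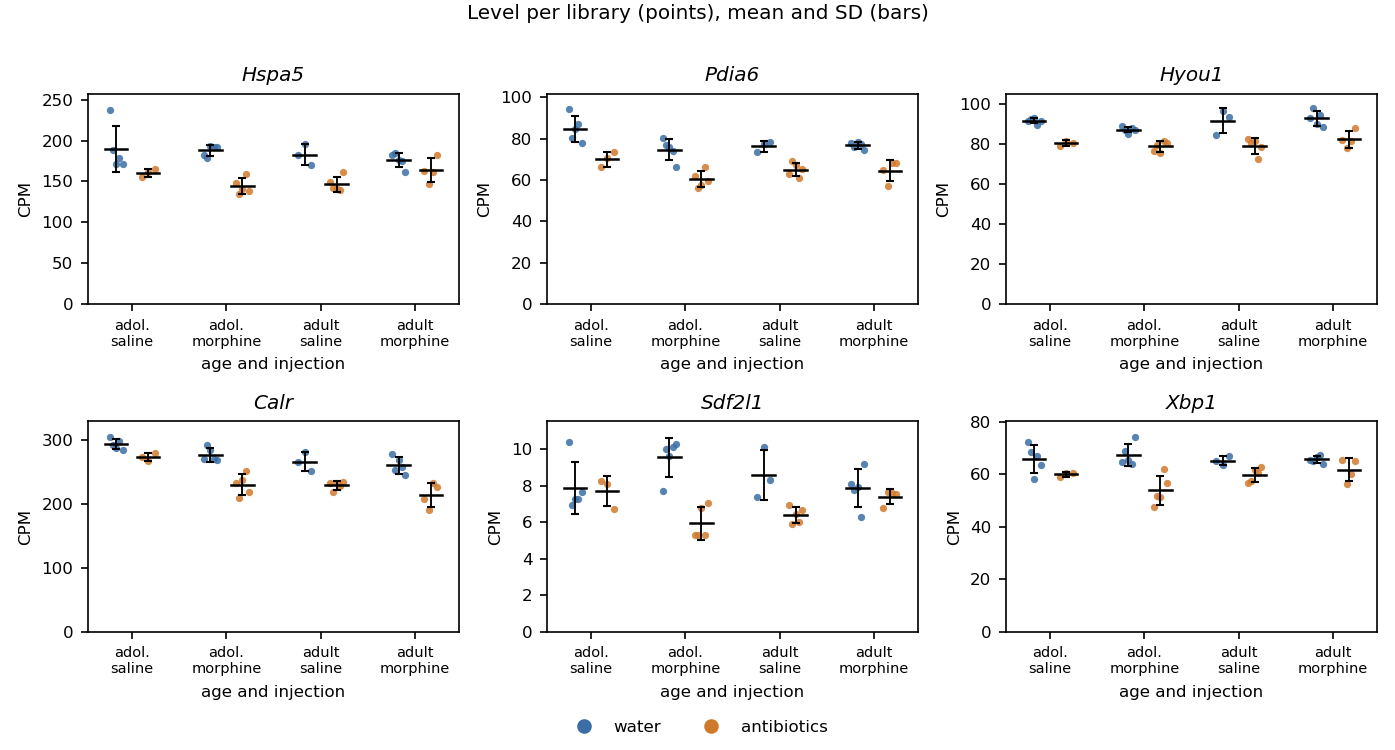
Level in CPM (vertical axis, from 0) of 6 members in each of the 35 libraries, by age and injection (horizontal axis), water in blue and antibiotics in orange, with bars for the mean and SD of each group. Antibiotics libraries sit below water libraries for Hyou1 and Pdia6 in each of the 4 pairs of groups, while Sdf2l1 separates mainly in adolescents given morphine and in adults given saline.

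Among the sensors and transcription factors Xbp1 alone passed. Xbp1, the substrate of IRE1, ranged from 58.0 to 74.3 CPM, median 65.4, on water and from 47.5 to 65.3 CPM, median 60.0, on antibiotics, and its total transcript level fell by 11% (log2 -0.17, SE 0.03, adjusted p = 0.000487). The counts do not distinguish spliced from unspliced Xbp1. The sensors stood at 0.10 for Ern1, 0.11 for Eif2ak3 (adjusted p = 0.0678) and 0.03 for Atf6, none of them passing. Ern1 and Eif2ak3 were the only 2 members with estimates above 0 in all 4 combinations of age and injection, which 14.5% of all genes also showed.

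The 4 tested members of the PERK output, Atf4, Ddit3, Asns and Chac1, were not called on average over the 4 combinations with 35 libraries. Atf4 ranged from 78.4 to 110 CPM, median 100, on water and from 83.0 to 101 CPM, median 96.1, on antibiotics (log2 -0.07, SE 0.03, adjusted p = 0.128). Ddit3 stood at -0.10 (SE 0.05), Asns, the asparagine synthetase, at -0.06 and Chac1, a glutathione-degrading enzyme, at -0.08. In the fit of 34 libraries, without adolescent water saline replicate 1, Atf4 fell (-0.09, adjusted p = 0.0164) and Eif2ak3 rose (0.13, adjusted p = 0.0114), and the other 15 calls were kept. By the same edgeR test in that fit, Asns fell in adults given morphine (-0.17, adjusted p = 0.0463). Atf4 fell there in adolescents given morphine (-0.19, adjusted p = 0.0288). Of the exon length of Eif2ak3, 8.05% lies under an opposite-strand gene. Adolescent water saline replicate 1 had the lowest Atf4 of the 35 libraries, 78.4 CPM. Its Eif2ak3 was 31.7 CPM against 21.2 to 28.0 in the other 4 of its group.

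**Figure D2:**
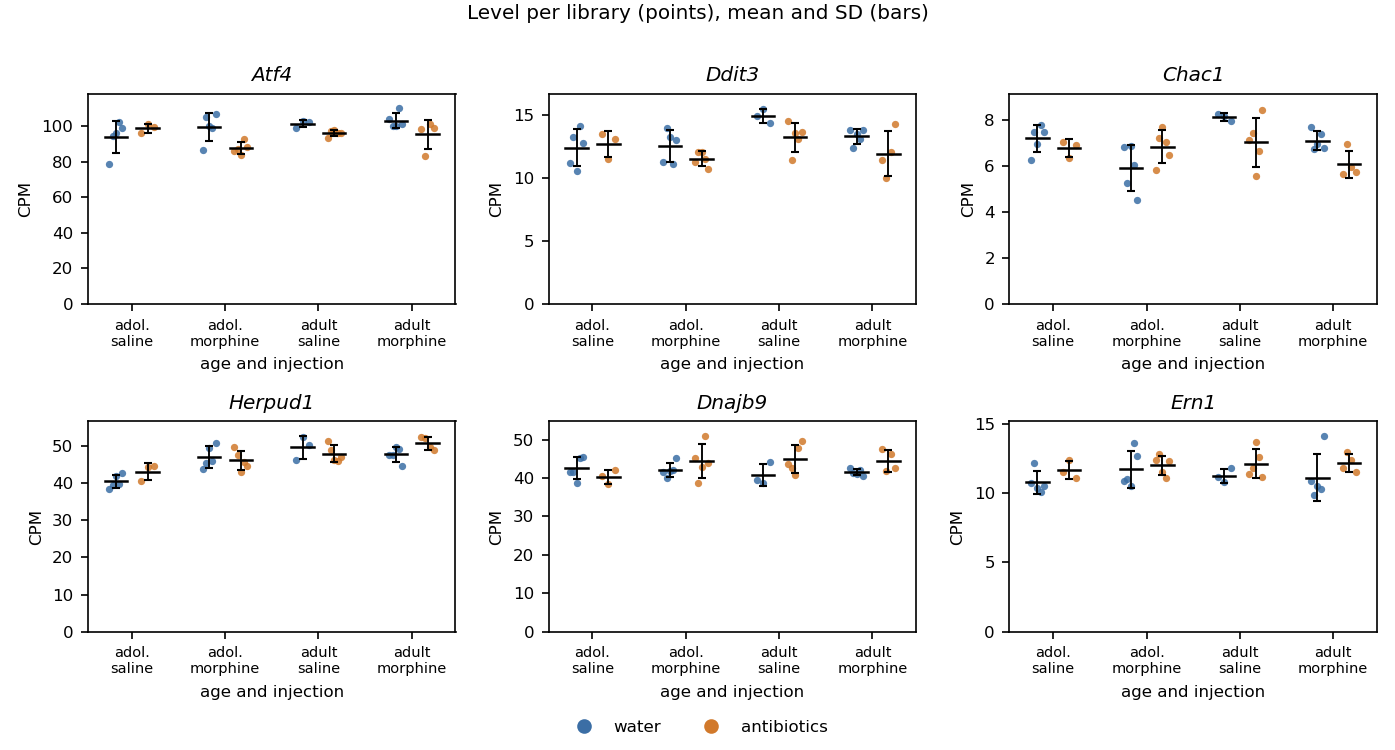
Level in CPM (vertical axis, from 0) of 6 members that did not pass for antibiotics, by age and injection, with water in blue, antibiotics in orange and bars for group mean and SD. Water and antibiotics libraries overlap in most of these panels, and the water libraries of adolescents given saline have the lowest mean for Herpud1, 40.5 CPM.

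In ER-associated degradation, Sel1l, the scaffold of the membrane ubiquitin ligase, ranged from 167 to 198 CPM on water and from 158 to 182 CPM on antibiotics, and fell by 7.95% (log2 -0.12, SE 0.02, adjusted p = 0.0005). Its ligase partner Syvn1 (HRD1) was at -0.02, the channel-forming Derl1 and Derl2 at -0.03 and -0.09, the mannosidase-like Edem1 at 0.00 and Herpud1, an organiser of the same complex, at 0.03, none passing. Sec61b, a small subunit of the translocation channel, was at -0.04 and Ssr1, of the translocon-associated complex, at 0.04. Of the 8 genes carrying the CCAAT and CCACG element, Hspa5, Hsp90b1, Creld2, Calr, Canx and Pdia6 fell, and Dnajc3 and Syvn1 did not pass. Of 12 tested genes outside the list with the same element, 2 fell (Adcy3 and Alg12) and 1 rose (Acacb), with a median of -0.07. The part of the element in these values was not tested.

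**Figure D3:**
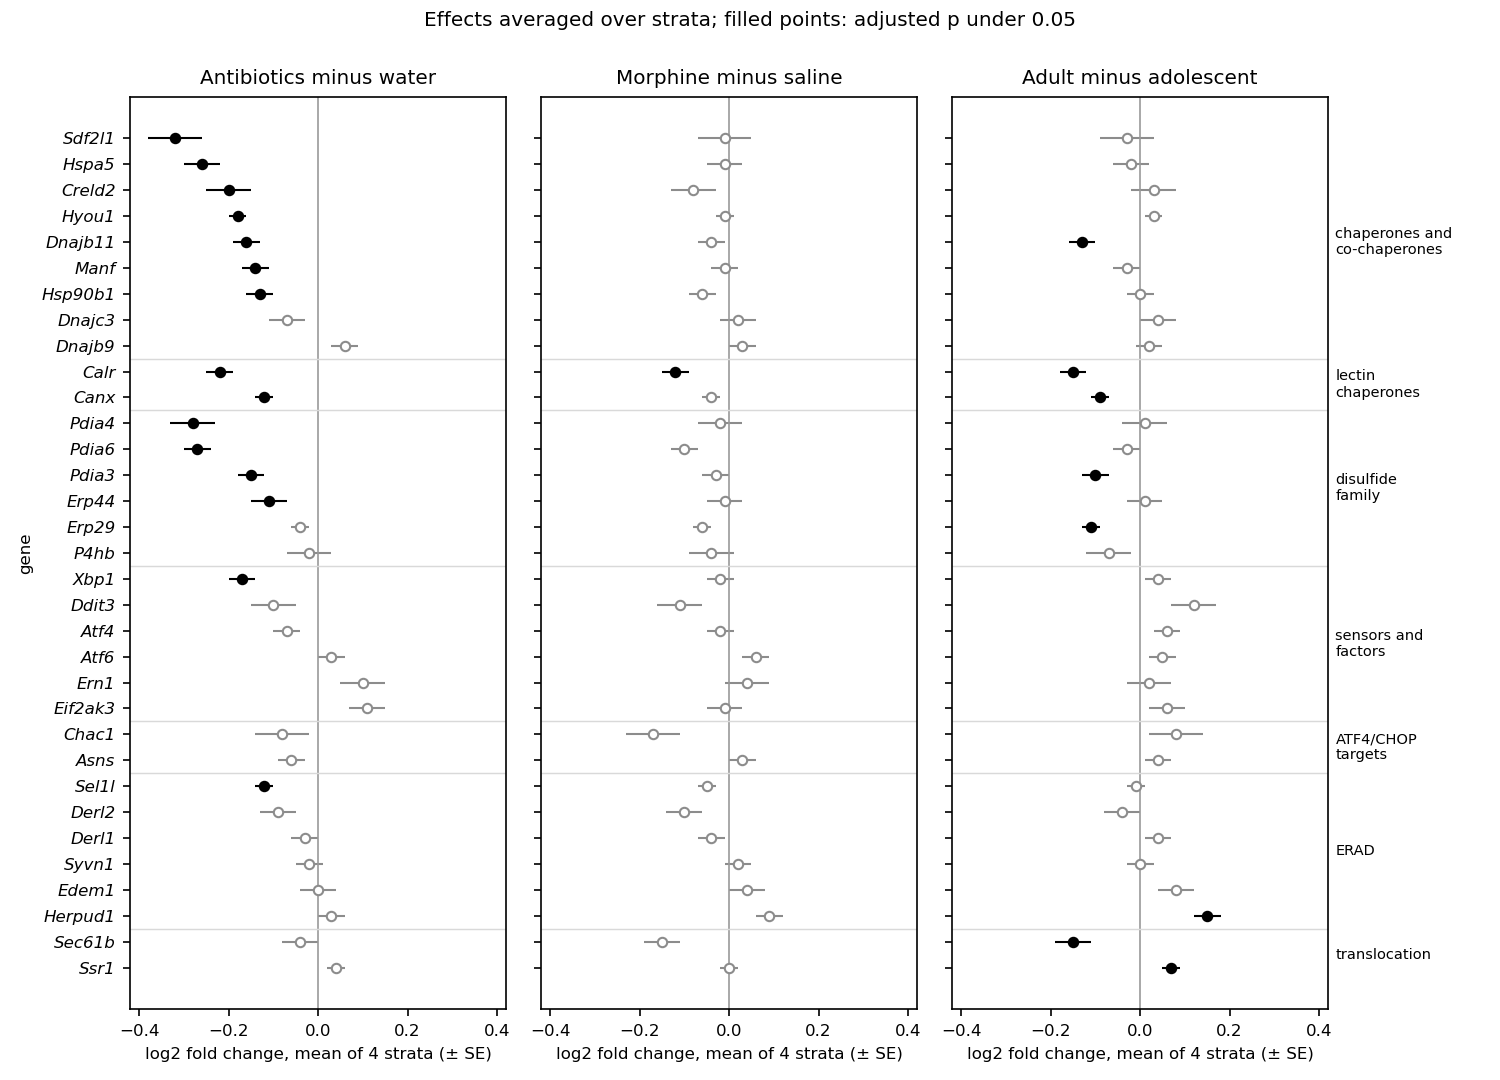
Log2 fold change with SE (horizontal axis) of each of the 33 members tested (rows, grouped by role) for antibiotics minus water, morphine minus saline and adult minus adolescent, each averaged over 4 strata, with filled points for an adjusted p under 0.05. In the antibiotics panel 15 filled points lie left of 0, in the morphine panel 1, and in the age panel 6 lie left and 2 right.

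The 4 combinations of age and injection use separate libraries, and 16 of the 33 members had estimates below 0 in all 4, against 14.2% of all genes. These included all 15 that fell on average except Creld2, which was at 0.10 in adults given morphine, together with Erp29 and Derl2. Without adolescent water saline replicate 1 the count was also 16, with Asns in and Sdf2l1, at 0.08 in adolescents given saline, out. Gene by gene, the calls came from the morphine groups. In adolescents given morphine 6 members fell and 0 rose, against 0.626% of all genes that fell: Hspa5 (-0.38), Pdia6 (-0.31), Xbp1 (-0.33), Sdf2l1 (-0.69), Calr (-0.27) and Pdia4 (-0.49). For Sdf2l1 the levels were 7.72, 10, 9.65, 10.1 and 10.3 CPM on water and 5.28, 5.29, 6.76, 5.31 and 7.07 CPM on antibiotics, which did not overlap. Without adolescent water saline replicate 1, a library outside this comparison that enters the fit through the shared scaling and spread, 11 members fell. The share of all genes that fell in that fit is not given here. Of 10 immediate early genes, which mark recent neuronal activity, 2 fell in this comparison and all 10 were below 0 (median -0.62), with summed levels of 577 to 1010 CPM on water and 430 to 615 CPM on antibiotics. Of 6 microglial markers 1 fell, with summed levels of 211 to 251 CPM on water and 196 to 226 CPM on antibiotics. Their part in the members' result was not tested.

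In adults given morphine 5 members fell and 0 rose, against 1% of all genes that fell: Calr (-0.28), Pdia6 (-0.25), Hyou1 (-0.17), Canx (-0.16) and Pdia3 (-0.18). Calr was at 278, 253, 269, 258 and 245 CPM on water and 208, 190, 232 and 227 CPM on antibiotics, with no overlap. This count was 8 without adolescent water saline replicate 1, 1 without adult antibiotics morphine replicate 2, and 2 with all 37 libraries or with no filter on low counts. Shares of all genes in these other fits are not given here. Calr and Pdia6 were called in both ages given morphine. Of 6 microglial markers 3 fell in these adults (median -0.31), with summed levels of 221 to 240 CPM on water and 176 to 209 CPM on antibiotics, and their part in this result was not tested.

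With saline, 0 members passed in either age by edgeR's quasi-likelihood test, and 0% of all genes fell in either. In adolescents given saline 8 members had an unadjusted p under 0.05, all of them lower, and DESeq2 called 2, Hyou1 and Pdia6. Their edgeR estimates were -0.19 (adjusted p = 0.125) and -0.28 (adjusted p = 0.101). Without adolescent water saline replicate 1, which is in this comparison, these were -0.19 and -0.23 (adjusted p = 0.262 for each). Hspa5 went from -0.24 to -0.14, Pdia4 from -0.34 to -0.17, and Sdf2l1 turned from -0.06 to 0.08, none passing. In adults given saline 12 members had an unadjusted p under 0.05, all lower, and DESeq2 called 3, Hspa5, Hyou1 and Sel1l. In the 34-library fit 4 members passed there, Hspa5 (-0.32), Hyou1 (-0.22), Sel1l (-0.19) and Creld2 (-0.44). The 0% above is for edgeR with 35 libraries, and shares of all genes by DESeq2 or with 34 libraries are not given here.

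Separation of single libraries gave a related picture. Every antibiotics library was below every water library for 6 members in adolescents given saline (2.73% of all genes), 9 in adolescents given morphine (2.28%), 13 in adults given saline (3.42%) and 7 in adults given morphine (2.6%). Hyou1, Calr and Pdia6 were in all 4 of these sets. Of the PERK output, Asns was in both adult sets and Atf4 in that of adults given saline. The opposite order was found for Eif2ak3 in adolescents given morphine (2.07% of all genes) and for Ssr1 in adults given morphine (2.96%), and for 0 members with saline (2.64% of all genes in adolescents and 3.95% in adults). Some gaps were narrow. For Hyou1 in adults given morphine the highest antibiotics library was at 88.3 CPM and the lowest water library at 88.9 CPM. For Pdia6 in adolescents given morphine these were at 66.1 and 66.5 CPM.

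**Figure D4:**
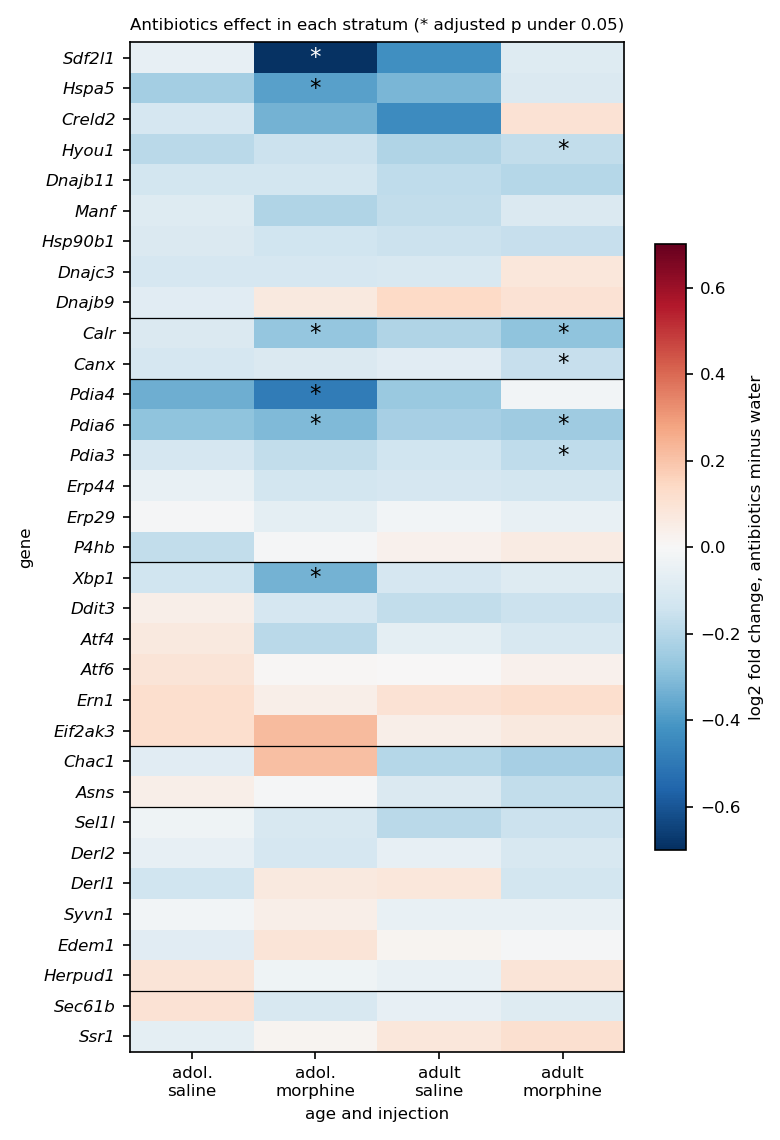
Log2 fold change of antibiotics minus water (colour, blue for lower and red for higher with antibiotics) for each of the 33 members tested (rows, grouped by role) in each of 4 combinations of age and injection (columns), with asterisks for an adjusted p under 0.05. Chaperone, lectin and disulfide rows are mostly blue in all 4 columns, and Sdf2l1 in adolescents given morphine (-0.69) is the darkest cell.

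Whether the antibiotic effect differed with age or injection was tested directly. No member passed in the interaction of age and antibiotics with saline (0 of 33 by edgeR and 0 by DESeq2, 5 with an unadjusted p under 0.05), where 0% of all genes passed. The same interaction with morphine was not tested. In the interaction of antibiotics and morphine, 0 of 33 passed in adolescents (0.0621% of all genes, 5 members with an unadjusted p under 0.05, 0 by DESeq2) and 0 in adults (0.00517%, 3 members, 0 by DESeq2). Sdf2l1 in adolescents (-0.63, 95% interval -0.98 to -0.29, adjusted p = 0.353) and Creld2 in adults (0.54, interval 0.25 to 0.83, adjusted p = 1) had the smallest p of the members there. Adolescent water saline replicate 1 is in the adolescent comparison and had a high Sdf2l1. Without it Sdf2l1 was at -0.77 (SE 0.16, adjusted p = 0.0525 by edgeR's quasi-likelihood test), close to the threshold but not past it. Calls in the morphine groups and their absence with saline are therefore not a shown difference between the injections.

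Cell type markers moved with the antibiotic groups too. Of 6 microglial markers 4 fell, with summed levels of 211 to 295 CPM on water and 176 to 251 CPM on antibiotics. Of 6 astrocyte markers 3 fell, with summed levels of 3340 to 4240 CPM on water and 3230 to 3900 CPM on antibiotics, and 1 of 6 excitatory neuron markers rose. The striatal neuron markers had 0 calls, but their median sums were higher on antibiotics in all 4 combinations of age and injection. In adults given morphine they summed to 116 to 147 CPM on water and 150 to 159 CPM on antibiotics, without overlap. In adolescents given morphine these were 138 to 152 CPM and 151 to 162 CPM, with overlap. None of the markers in these lists was at 0 over the 35 libraries. In bulk tissue, fewer cells of a type and less RNA per cell cannot be told apart, and the part of these markers in the chaperone result was not tested.

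Beyond the 34 members, 114 further genes of ER folding, degradation, transport, stress regulation and ATF4 output were listed and 112 tested. With antibiotics 9 of the 112 fell and 7 rose (5.05% and 5.16% of all genes), with the lower calls led by Uggt1 (-0.19), the folding sensor that returns glycoproteins to Calr and Canx, Atf6b (-0.18), the paralog of Atf6, and Sec61a1 (-0.15), the pore of the translocation channel. Of 22 further folding genes 1 fell and 2 rose, and of 18 further degradation genes 0 fell and 2 rose. Of 32 further ATF4 targets tested 5 fell and 1 rose. 

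Age changed many genes, and the members were called at a share near that of all genes. Averaged over the 4 treatments, 2 of 33 members were higher in adults and 6 lower, against 9.11% and 11.2% of all genes. Herpud1 ranged from 38.5 to 50.9 CPM, median 44.4, in the 18 adolescent libraries and from 44.5 to 52.4 CPM, median 49.0, in the 17 adult libraries, and was higher in adults by 0.15 (SE 0.03, adjusted p = 0.000131). Calr ranged from 210 to 305 CPM, median 271, in adolescents and from 190 to 281 CPM, median 235, in adults, a difference of -0.15 (SE 0.03, adjusted p = 0.00017). Both genes overlapped widely between the ages.

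The other lower members in adults were Erp29 (-0.11), Dnajb11 (-0.13), Canx (-0.09), Pdia3 (-0.10) and Sec61b (-0.15), and Ssr1 was the other higher one (0.07). Calr, Canx, Pdia3 and Dnajb11 thus passed both for age and for antibiotics, while Hspa5, at -0.02, and Pdia6, at -0.03, did not pass for age. The 7 libraries with islet reads are all adolescent, and a fit with a term for them also gave 2 higher and 6 lower members. Of the marker lists, 4 of 6 microglial markers were lower in adults (summed levels of 196 to 295 CPM in adolescents and 176 to 240 CPM in adults), as were 3 of 5 markers of oligodendrocyte precursors and newly formed oligodendrocytes (130 to 282 CPM and 105 to 137 CPM) and 1 of 6 astrocyte markers (3320 to 4190 CPM and 3230 to 4240 CPM). Their part in the age result was not tested.

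Within single treatments, age calls were few. On water with saline Herpud1 was the only member called (3.39% of all genes), at 38.5, 39.5, 41.8, 39.7 and 42.8 CPM in adolescents and 46.2, 52.4 and 50.2 CPM in adults, which did not overlap (log2 0.29, SE 0.06, adjusted p = 0.00309, and 0.00368 without adolescent water saline replicate 1). On antibiotics with saline Calr was the only one (1.39% of all genes), at 273, 267 and 280 CPM in adolescents and 232, 218, 232, 228 and 235 CPM in adults, again without overlap (-0.25, SE 0.06, adjusted p = 0.015). The Calr call was lost with all 37 libraries and on leaving out adolescent antibiotics saline replicate 1, 2 or 5 or adult antibiotics saline replicate 2. With morphine 0 members passed on water (0.626% of all genes, 7 with an unadjusted p under 0.05, 0 by DESeq2).

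With morphine on antibiotics 0 members passed (1.87% of all genes, 12 with an unadjusted p under 0.05). DESeq2 called 2 there, Pdia4 and Ssr1, and the fit without adolescent water saline replicate 1 called 4, all higher in adults: Pdia4 (0.34), Dnajc3 (0.22), Xbp1 (0.20) and Hspa5 (0.19). Neither fit's share of all genes is given here. In these 2 groups Pdia4 was at 18.9, 19.6, 21.4, 21.0 and 19.4 CPM in adolescents and 25.7, 23.4, 24.2 and 28.0 CPM in adults, with no overlap (0.34 with 35 libraries, adjusted p = 0.0586). Of the 10 immediate early genes 3 were higher in adults in this comparison and all 10 were above 0 (median 0.80), with summed levels of 430 to 615 CPM in adolescents and 742 to 1050 CPM in adults, and their part in these values was not tested. These comparisons share libraries with the antibiotic comparisons.

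Morphine changed few members. Averaged over the 4 combinations of age and drinking water, Calr was the only member called, against 0.316% of all genes, with a difference of -0.12 (SE 0.03, adjusted p = 0.0493). That call was lost with DESeq2 size factors, with all 37 libraries, with a term for islet reads and on leaving out any of a majority of the single libraries. Of 6 microglial markers 2 were lower with morphine, with summed levels of 202 to 295 CPM with saline and 176 to 251 CPM with morphine, and their part in this value was not tested. In adolescents on water Herpud1 was called (0.331% of all genes), at 38.5, 39.5, 41.8, 39.7 and 42.8 CPM with saline and 43.7, 45.3, 49.5, 46.0 and 50.9 CPM with morphine. The groups did not overlap (0.22, SE 0.05, adjusted p = 0.0409). These saline libraries are also the adolescent side of the Herpud1 age call on water, so the 2 calls are not independent. This call was lost without adolescent water saline replicate 1, 2 or 3, without adolescent water morphine replicate 3, 4 or 5, with no filter on low counts, with a replicate block and with a term for islet reads.

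Elsewhere morphine called 0 members by edgeR's quasi-likelihood test. In adolescents on antibiotics (0.0466% of all genes) 7 members had an unadjusted p under 0.05, all lower, led by Calr (-0.25, adjusted p = 0.0941), which DESeq2 and the 34-library fit called. In adults the counts with an unadjusted p under 0.05 were 1 on water and 3 on antibiotics, with 0 called by DESeq2 and 0% of all genes called in either. In adults on water the smallest p belonged to Creld2 (-0.33, adjusted p = 1), and in adults on antibiotics to Dnajc3 (0.19, adjusted p = 0.492). The interaction of age and morphine on water called 0 members (0% of all genes, 6 with an unadjusted p under 0.05, 0 by DESeq2), with Herpud1 at -0.28 (95% interval -0.43 to -0.13, adjusted p = 0.527).

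Some members varied with Hspa5 among libraries of the same group, fewer of them without adolescent water saline replicate 1. With group means removed, Pearson's r of log2 CPM with Hspa5 over 35 libraries was 0.72 for Pdia3 (Spearman's rho 0.68, permutation p = 4e-05 for r and 9e-05 for rho) and 0.59 for Calr (rho 0.58, permutation p = 0.00017 for r and 0.00144 for rho). Of 32 such relations computed, 8 passed for r with Benjamini-Hochberg adjustment over them. Without adolescent water saline replicate 1 only 2 did, Pdia3 and Calr, at r of 0.66 each. By rho over 35 libraries only Pdia3, Calr and Pdia4 passed (adjusted permutation p = 0.00288, 0.023 and 0.0282). Without the 2 libraries farthest from the median of Hspa5, adolescent water saline replicate 1 and adult antibiotics morphine replicate 5, r was 0.69 for Pdia3 and 0.61 for Calr.

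The share of members with r of at least 0.4 was 43.8% over 35 libraries and 25.0% over 34. That of all genes was 9.45% over 35 and was not computed over 34. Pdia4 reached r of 0.72 over 35 libraries and 0.45 over the 34. In the library left out, adolescent water saline replicate 1, it was at 40.5 CPM against 24.8 to 27.9 in the other 4. In that smaller set the sensors Ern1 (-0.41), Atf6 (-0.19) and Eif2ak3 (-0.06) did not track Hspa5 upward, and Asns moved from 0.00 to 0.49. The points share sequencing depth and tissue makeup within a library.

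**Figure D5:**
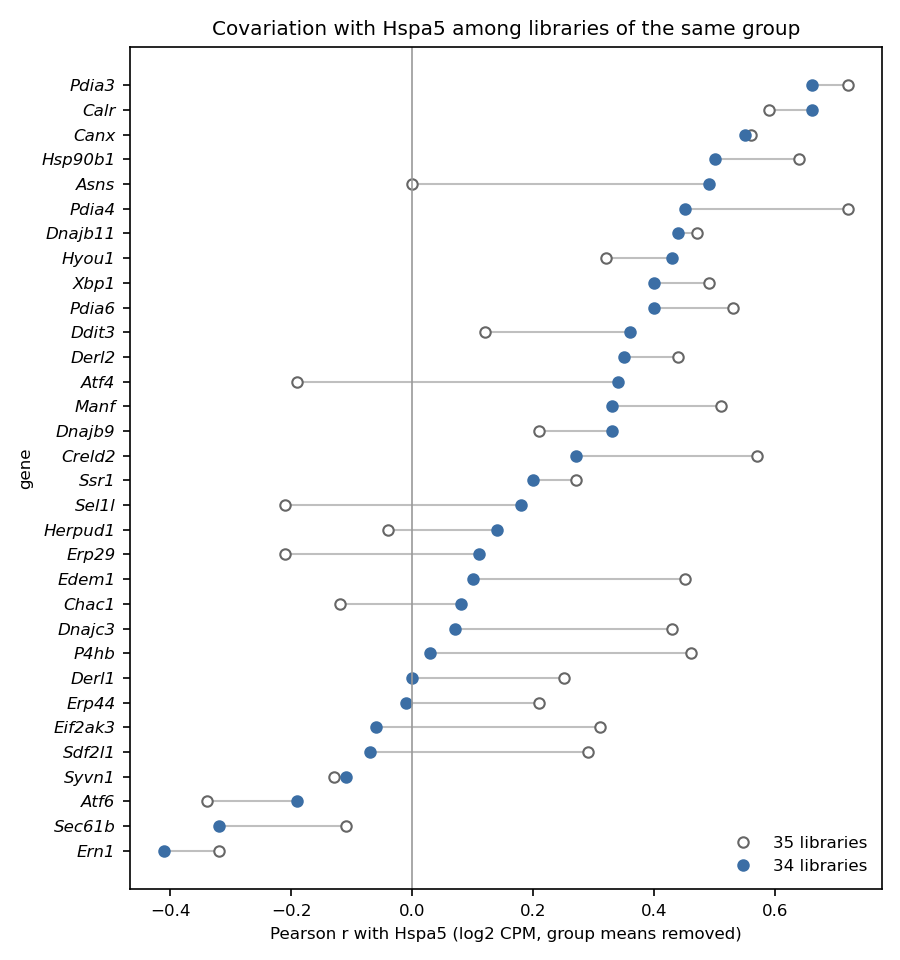
Pearson's r with Hspa5 (horizontal axis, log2 CPM with group means removed) for each of the other 32 members tested (rows), over 35 libraries (open points) and over 34 libraries without adolescent water saline replicate 1 (filled points). Pdia3 and Calr stay at 0.66 in the smaller set, and P4hb moves from 0.46 to 0.03.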

How the data were processed

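The authors deposited raw read counts per gene and library. Per the submitters' processing notes, the tools were STAR 2.7.10a and DESeq2 with the mm10 build, and per the labels' protocols an RNeasy Mini kit and an ABclonal library kit were used. Neither the strand setting nor the annotation release is given in the sources used here. Identifiers were matched to symbols in GENCODE M21 (52073 of 56980, with 3.86% of counts unmatched). Ddit3 matched 2 rows, and the row with counts was used.

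The tests were run with edgeR 4.0.16 in R 4.3.3: TMM scaling, filterByExpr on 8 groups (19332 genes), a robust quasi-likelihood fit with a mean per group on 35 libraries, and 19 contrasts. P-values were adjusted by Benjamini-Hochberg over all genes tested, with a threshold of 0.05. SE is the absolute log2 difference divided by the square root of F. CPM uses TMM-scaled totals. Correlations used 100000 permutations within groups. DESeq2 1.42.0 was an alternative, as were DESeq2 size factors, no filter, other sets of libraries, a replicate block and, added after the data were seen, a term for islet reads. The fit was also run on simulated counts drawn independently per library, with no library set apart. That run cannot speak to library differences of the kind seen here, and its outcome is not given.

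The members and gene lists were chosen with earlier results of these data known. Genes named are the members past the threshold (the 8 smallest p where more), or the 3 smallest p where none passed, and up to 3 further pathway genes per contrast. Others were named after their values were seen. Nothing in the labels says that replicates are separate animals, so p-values measure the spread between these samples. Replicate numbers did not pair the samples. Of the marker lists, blood, pericyte and endothelial, meningeal, choroid plexus, striatal, oligodendrocyte and its precursors, acinar, islet, inhibitory neuron and immediate early genes had 0 calls with antibiotics averaged. That fit holds adolescent water saline replicate 1, with striatal markers at 1080 CPM. Median striatal sums were 143 CPM on antibiotics and 122 on water in adolescents given saline, and 159 and 138 with morphine. In adults they were 138 and 125 CPM with saline, and 154 and 125 with morphine. The part of these markers in the chaperone result was not tested.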

Additional observations from a re-analysis of the deposited data

Results flagged for a closer look

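Among 198 sets of 1 gene in 1 group of 4 or more libraries, 19 held a library far from the others of its group by Dixon's criterion at 95%, which chance alone gives in about 1 in 20 sets. They fell in 9 libraries, 7 of them in adolescent water saline replicate 1, the library with high oligodendrocyte and striatal markers. There Hspa5 was 238 CPM (171 to 188 in the others), Hsp90b1 203 CPM (165 to 176), Sdf2l1 10.4 CPM (6.93 to 7.64), Manf 40.3 CPM (32.8 to 34.9), Creld2 12.8 CPM (8.76 to 9.49), P4hb 111 CPM (72.3 to 78.2) and Pdia4 40.5 CPM (24.8 to 27.9). All 7 were high. Whether these levels and the marker levels of that library have a common source was not tested.

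The remaining sets were spread over 8 libraries. In adolescent water morphine replicate 1, Sdf2l1 was low at 7.72 CPM (9.65 to 10.3) and Manf at 31.9 CPM (36.4 to 37.7), and in replicate 5 of that group Canx was low at 302 CPM (315 to 317). In adult water morphine, replicate 5 had high Dnajc3 at 59.9 CPM (49.3 to 51.8), high Ern1 at 14.1 CPM (9.84 to 10.9) and low Asns at 91.6 CPM (97.2 to 99.1), and replicate 4 had high Manf at 36.1 CPM (33.7 to 34.4). In adult antibiotics morphine, replicate 1 had low Sdf2l1 at 6.76 CPM (7.57 to 7.68) and high Dnajc3 at 61.8 CPM (53.1 to 54.4), and replicate 2 had low Atf4 at 83.0 CPM (98.5 to 101). Ern1 was high at 12.2 CPM (10.1 to 10.7) in adolescent water saline replicate 2, and Eif2ak3 was low at 28.4 CPM (30.5 to 31.3) in adolescent antibiotics morphine replicate 5.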

How the results depend on the processing

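Of the 15 members lower with antibiotics on average, 14 were called in all 42 settings run, Erp44 being the exception. The 42 hold the fit of 34 libraries again among those that leave out 1 library. The count was 14 to 17 when each library was left out in turn. Counts of members called within single groups depended more on the setting, and no call reversed direction. With DESeq2, antibiotics called 2 in adolescents given saline and 3 in adults given saline, age called 2 on antibiotics with saline and 2 on antibiotics with morphine, and morphine called 1 in adolescents on antibiotics. With 34 libraries, antibiotics called 11 in adolescents and 8 in adults given morphine and 4 in adults given saline, age on antibiotics with morphine called 4, morphine called 0 in adolescents on water and 1 in adolescents on antibiotics, and 2 members correlated with Hspa5. With all 37 libraries, antibiotics called 2 in adults given morphine, age on antibiotics with saline 0 and morphine on average 0. With no filter, antibiotics called 2 in adults given morphine and morphine 0 in adolescents on water. DESeq2 size factors gave 0 for morphine on average, and the islet term 0 there and 0 for morphine in adolescents on water. Shares of all genes called in these settings are not given here, and the cause of these moves was not tested.

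Leaving out 1 library gave 6 to 11 members for antibiotics in adolescents and 1 to 8 in adults given morphine, 0 to 1 in adolescents and 0 to 4 in adults given saline. It gave 8 to 9 for age on average, 0 to 1 on antibiotics with saline and 0 to 4 with morphine. For morphine it gave 0 to 2 in adolescents on water, 0 to 1 on antibiotics and 0 to 1 on average, and 2 to 10 members correlated with Hspa5. No pairing by replicate number was seen. Deviations of same-numbered libraries correlated at a median of 0.01 (-0.36 to 0.42 over 108 pairs), and other pairs also at 0.01. A median over all pairs cannot exclude pairing between some of the groups. A replicate block gave 0 for morphine in adolescents on water, 1 in adolescents on antibiotics and 5 members correlated with Hspa5. Over the named members and settings, 2573 results kept their side of the threshold, 91 lost it and 24 passed it newly. The fit of 34 libraries enters this tally again as a fit that leaves out 1 library. Depth limits Trib3, which could not be tested, and differences of a few percent in the low-count members Sdf2l1, Creld2 and Chac1.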

Other observations

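The 2 libraries under 1000000 counts were left out of the comparisons. Adolescent antibiotics saline replicate 3 held 25165 counts, of which 62 fell in the members and 1 in Hspa5, with 14 members at 0. Adult antibiotics morphine replicate 4 held 58764 counts, of which 172 fell in the members and 13 in Hspa5, with 5 members at 0. Summed over the members without TMM scaling, these were 2460 and 2930 CPM, against 2230 to 2900 CPM in the other 35 libraries.

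Several further genes of the pathway passed for antibiotics averaged over the 4 combinations and are given as values. Stc2, a secreted glycoprotein of the PERK arm, fell by 0.50 on the log2 scale (SE 0.12, adjusted p = 0.00607, edgeR quasi-likelihood test), and Cth, an enzyme of cysteine synthesis, fell by 0.36 (SE 0.10, adjusted p = 0.0177). Ppp1r15a, the phosphatase subunit that ends PERK signalling, rose by 0.19 (SE 0.05, adjusted p = 0.0161), as did Nploc4 and Ufd1, partners of the extraction ATPase of ER-associated degradation, by 0.12 and 0.09. These genes were named after their values were seen, except Nploc4.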
